A study of Mus musculus with 6 samples.

Results

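Succinate dehydrogenase, complex II of the mitochondrial respiratory chain, was followed here in PGC-1alpha null mouse striatum through the transcripts of its 4 subunit genes, Sdha, Sdhb, Sdhc and Sdhd, and of 2 assembly factor genes, Sdhaf1 and Sdhaf2. The 6 genes, of 18193 named on the array, were taken by name and not by their values. All single-symbol probe sets of the 6 genes were used, 12 of the 45101 on the array, and 11 of them passed the filter on low signal and were tested. Striatal RNA came from 3 PGC-1alpha null mice (PGC-1a-/-, KO) and 3 wild-type littermates (PGC-1a+/+, WT), all female and aged 6 months, bred from heterozygous founders. Each mouse had 1 Affymetrix array. Neither a treatment nor a Cre driver is named in the labels, and the sources used here do not give the strain background. RNA was taken from whole striatum. For KO 3 the label reads cytoplasmic RNA, while the other 5 arrays and the series design read total RNA, so values without KO 3 are given for the members, the subunit pairs and the list medians.

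Complex II joins the citric acid cycle to the respiratory chain. It oxidises succinate to fumarate and hands the electrons to ubiquinone, and it is the only complex of the chain with no subunit encoded in mitochondrial DNA. Sdha holds the covalently bound flavin at which succinate is oxidised, Sdhb carries the iron-sulphur clusters, and Sdhc and Sdhd anchor the enzyme in the inner membrane and form the ubiquinone site. Sdhaf2 is needed to attach the flavin to Sdha, and Sdhaf1 for the iron-sulphur clusters of Sdhb. In the striatum the enzyme is known as the target of 3-nitropropionic acid, an inhibitor that causes striatal lesions. PGC-1alpha itself is a transcriptional coactivator that works through DNA-binding partners such as NRF1, the estrogen-related receptors (ERR) and GABP.

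The promoters of the subunit genes are shown because those partners bind at defined letters near the starts of mitochondrial genes. RefSeq promoter windows of 300 bases (GRCm38.p6, 250 bases before the start and 50 after) were matched for 5 of the 6 genes, all but Sdhc. Windows of 3 subunits are printed 5′ to 3′ for their first 280 bases, with capitals at matches on either strand to GCGCA and GCGC with 1 base of any kind between them (NRF1), AAGGTCA (the core ERR element), CCGGAAG (GABP and other ETS factors) and GGGCGG (the SP1 GC box). No printed match overlaps another.
Sdha promoter, chr13:74350211-74350490, minus strand: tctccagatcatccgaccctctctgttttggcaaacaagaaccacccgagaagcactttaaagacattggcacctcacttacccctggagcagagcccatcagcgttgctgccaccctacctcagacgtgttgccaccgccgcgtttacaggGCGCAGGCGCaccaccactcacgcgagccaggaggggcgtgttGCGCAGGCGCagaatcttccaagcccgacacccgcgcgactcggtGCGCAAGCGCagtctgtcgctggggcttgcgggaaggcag
Sdhb promoter, chr4:140961021-140961300, plus strand: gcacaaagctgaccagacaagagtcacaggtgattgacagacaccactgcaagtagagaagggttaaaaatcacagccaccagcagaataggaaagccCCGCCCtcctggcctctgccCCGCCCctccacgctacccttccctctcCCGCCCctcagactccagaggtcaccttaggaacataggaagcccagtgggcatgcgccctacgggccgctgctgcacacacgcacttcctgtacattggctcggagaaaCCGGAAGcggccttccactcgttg
Sdhd promoter, chr9:50603820-50604099, minus strand: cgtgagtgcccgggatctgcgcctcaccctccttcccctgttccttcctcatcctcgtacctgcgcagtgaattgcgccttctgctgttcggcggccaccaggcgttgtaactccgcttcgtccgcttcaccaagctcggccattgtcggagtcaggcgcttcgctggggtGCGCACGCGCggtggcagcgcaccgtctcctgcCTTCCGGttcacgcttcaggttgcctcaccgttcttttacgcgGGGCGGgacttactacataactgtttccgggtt

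The 3 windows hold different letters. Sdha had 3 NRF1 matches, starting 98, 55 and 10 bases before the start, and none of the other motifs. Sdhb had 3 GC boxes and 1 GABP match but neither an NRF1 nor an ERR match. Sdhd had 1 match to each of the 4, with its ERR match beginning at base 37 after the start, beyond the printed stretch. Its window also shares 151 bases with that of Timm8b, a mitochondrial import chaperone gene on the opposite strand whose start lies 52 bases away. Sdhaf1 had 1 GABP match and 2 GC boxes, and Sdhaf2 had 2 and 3. Over all 32851 windows, 4.6% held the NRF1 letters, 4.72% the ERR letters, 8.86% the GABP letters and 35.7% the GC box, and the YY1 letters AAGATGGC, found in 2.75%, were in none of the 5. The 5 windows held 60% to 76.7% G and C, against a median of 52.7% over all windows. The shares over all windows are thus not matched to the members for base content. A match is a description of the letters and does not show binding.

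Signals are MAS5 values on a linear scale, and differences are KO minus WT on log2(signal + 16), a scale on which changes of dim probe sets come out too small. Ppargc1a, the targeted gene, was lower in every KO mouse than in any WT mouse by all 5 of its probe sets, with differences from -1.93 to -1.12, each past an adjusted p of 0.05 in limma. Without the intensity trend in limma 2 of these 5 calls were lost (adjusted p = 0.087 and 0.12). The arrays were alike in scale, with median signals of 43.1 to 45 in KO and 44.7 to 47.3 in WT, and in 3'/5' ratio. The log2 ratio for Gapdh was -0.464 to -0.443 in KO and -0.495 to -0.426 in WT. Medium spiny neuron markers, which define the striatum, were bright in all 6 arrays, with summed signals of 11 tested markers of 31000 to 34636 in KO and 29407 to 34483 in WT.

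None of the 11 tested complex II probe sets passed an adjusted p of 0.05 in limma, where 0.47% of the 27022 probe sets tested did. At an unadjusted p under 0.05, 4 of the 11 were lower in KO and 0 higher, against 5.06% of all probe sets lower. After quantile normalization 1 of the 11, Sdhb, passed. In 5 of the 11 all KO mice lay below all WT mice, and these belong to Sdha, Sdhb and Sdhc. Over all probe sets 7.88% lay so. By sign alone 9 of the 11 had a difference under 0, as did 51.1% of all. In bulk tissue, fewer cells of a type and less RNA per cell cannot be told apart.

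**Figure D1:**
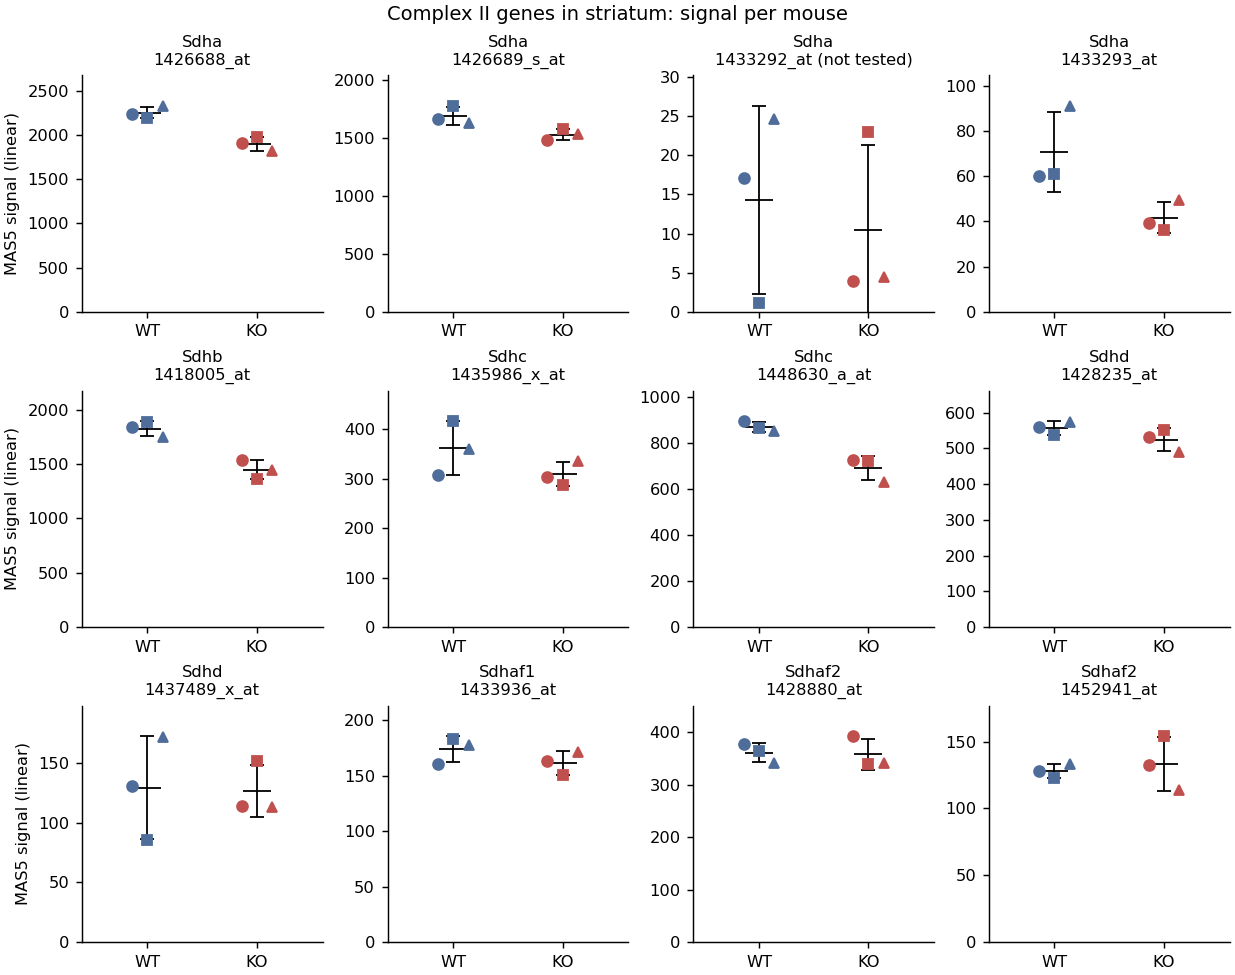
MAS5 signal (linear scale, from 0) of the 12 probe sets of the complex II genes in each mouse, WT in blue and KO in red. Circles, squares and triangles are the mice numbered 1, 2 and 3, and bars give the mean and SD of 3 mice. KO and WT do not overlap for Sdhb, for 3 of the 4 Sdha probe sets and for 1 of the 2 for Sdhc, and they overlap for Sdhd, Sdhaf1 and Sdhaf2.

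Sdhb, the iron-sulphur subunit, had the smallest p among the members. Its single probe set, 1418005_at, read 1540.3, 1359.5 and 1450.4 in KO 1, 2 and 3 and 1843.9, 1884.9 and 1751.6 in WT 1, 2 and 3. Every KO mouse lay below every WT mouse, with KO 1 the highest of the KO mice and WT 3 the lowest of the WT mice. KO mice averaged 1450 ± 90.4 and WT mice 1827 ± 68.3 (SD, n = 3 each). The difference was -0.33 (SE 0.072, limma adjusted p = 0.091), a signal 20.5% lower, with a 95% interval of 11.3% to 28.7% lower. Quantile normalization brought the adjusted p to 0.049, and over all 15 alternatives it ran from 0.049 to 0.42 and the difference from -0.38 to -0.29. Without KO 3 the difference was -0.33 (adjusted p = 0.21).

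Sdha, the flavoprotein subunit, was read by 4 probe sets that differ in brightness. The brightest, 1426688_at, read 1905.4, 1972.1 and 1820.4 in KO and 2237.6, 2195.3 and 2324.4 in WT. The groups did not overlap, and the difference was -0.24 (SE 0.067, limma adjusted p = 0.21), a signal 15.6% lower. The second, 1426689_s_at, read 1475.6, 1570.6 and 1530.2 in KO and 1660.3, 1769.8 and 1624.2 in WT. There too all KO mice were below all WT mice, with a smaller difference of -0.14 (SE 0.069, limma adjusted p = 0.58), and -0.14 without KO 3. A dim probe set, 1433293_at, read 39.4, 36.2 and 49.5 in KO and 60, 60.9 and 91 in WT. Its difference was the largest of any member, -0.57, with a wide error (SE 0.20, limma adjusted p = 0.35), and WT 3 stood well above the other WT mice. The fourth, 1433292_at, had signals of 1.1 to 24.6 on all arrays, below the filter signal of 26.8, and was not tested. Without KO 3 the brightest probe set gave -0.21 and the dim 1433293_at -0.67.

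Sdhc, the larger of the membrane anchors, was read by 2 probe sets that gave different precision. The brighter, 1448630_a_at, read 725.8, 720.8 and 632.2 in KO and 895.6, 865.2 and 854.2 in WT. No KO mouse reached the lowest WT mouse, and KO 3 was the lowest of all. The difference was -0.33 (SE 0.081, limma adjusted p = 0.15), a signal 20.3% lower, with a 95% interval of 9.97% to 29.4% lower. Without KO 3 it was -0.26. The dimmer 1435986_x_at read 304.3, 287.1 and 335.4 in KO and 307, 416.4 and 361.2 in WT. Here the groups overlapped, as WT 1 fell within the KO range, and the difference was -0.21 (SE 0.12, limma adjusted p = 0.64), or -0.27 without KO 3.

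Sdhd, the other anchor subunit, overlapped between the genotypes in both of its probe sets. The brighter, 1428235_at, read 530.7, 552.9 and 489.6 in KO and 558.9, 536.9 and 574.7 in WT. KO 2 lay above WT 2, and the difference of -0.09 (SE 0.083, limma adjusted p = 0.81) has a 95% interval from 16.9% lower to 6.87% higher. Without KO 3 it was -0.04. The dimmer 1437489_x_at read 114.4, 152 and 113.5 in KO and 130.6, 85.9 and 172 in WT. Its WT values spanned those of all KO mice, its difference was 0.0049 (SE 0.20), or 0.07 without KO 3, and its sign turned with an offset of 64 and without KO 2 or WT 2. Timm8b, which shares the Sdhd promoter window, read 925, 886.3 and 828.3 in KO and 1013.2, 999.3 and 931.6 in WT, a difference of -0.16 (SE 0.077, limma adjusted p = 0.58). For Timm8b the groups did not overlap, though KO 1 and WT 3 lay close together.

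The assembly factor genes overlapped between KO and WT. Sdhaf1 (1433936_at) read 163.5, 150.4 and 171.9 in KO and 161, 183.2 and 177.7 in WT, a difference of -0.09 (SE 0.12, limma adjusted p = 0.86). Its 95% interval ran from 21.3% lower to 11.5% higher, so a change of the size seen in Sdhb lies inside it, and without KO 3 the difference was -0.13. Sdhaf2 gave 392.2, 340.4 and 341.8 in KO and 377, 364.3 and 341.2 in WT by 1428880_at, with KO 1 the highest of the 6 mice. The difference was -0.01 (SE 0.095, limma adjusted p = 0.99), with a 95% interval from 14.1% lower to 14.5% higher, and its sign turned with each array centred on its median and without KO 2, KO 3 or WT 1. The other Sdhaf2 probe set, 1452941_at, read 132.6, 153.8 and 113.7 in KO and 128.1, 123 and 133.1 in WT (difference 0.04, SE 0.14), and without KO 3 gave 0.14. Sdhaf3 and Sdhaf4, also assembly genes, lie outside the 6. Sdhaf4, which helps join flavinylated Sdha to Sdhb, read 581, 504.4 and 593.7 in KO and 675.3, 680.9 and 590.5 in WT (difference -0.21, SE 0.093, limma adjusted p = 0.52). KO 3 and WT 3 lay close and in the opposite order to the rest. Sdhaf3, which acts with Sdhaf1 on Sdhb, differed by -0.10 (SE 0.13, limma adjusted p = 0.88) by its brighter probe set, with overlapping groups.

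**Figure D2:**
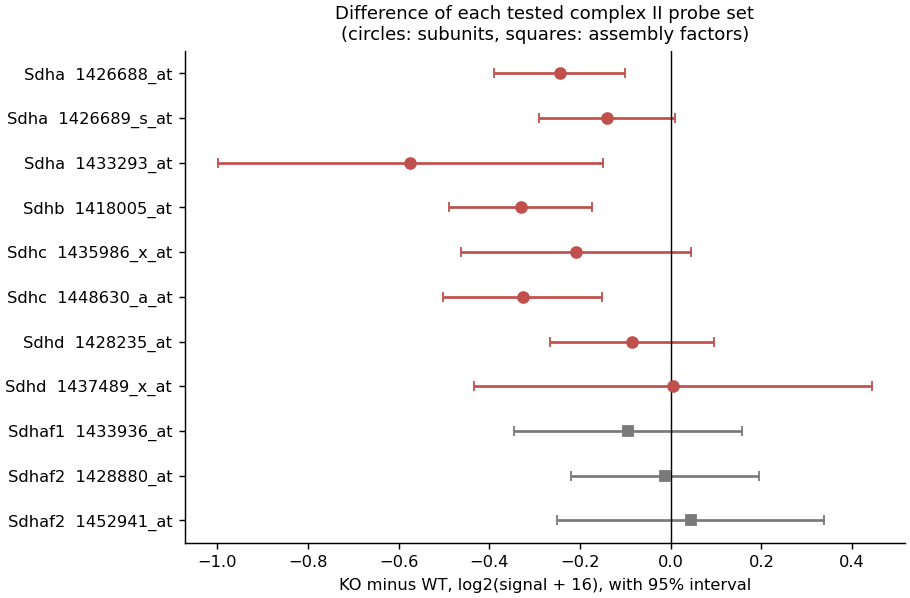
KO minus WT difference on log2(signal + 16) for each of the 11 tested complex II probe sets, with 95% intervals from limma. Circles are subunits and squares assembly factors. The intervals of Sdhb, of 2 Sdha probe sets and of 1 Sdhc probe set lie below 0, and the others include 0.

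Whether the 4 subunits differed by unequal amounts was asked within each mouse, so that array scale drops out. The difference of log2 values between 2 subunits was taken per mouse, by each gene's brightest probe set, and set relative to the WT mean. The 3 pairs that contain Sdhd were lower in every KO mouse than in any WT mouse. All 3 subtract the same Sdhd value in each mouse, so they are not independent of each other. Sdha minus Sdhd was -0.17, -0.18 and -0.12 in KO and -0.01, 0.01 and 0.00 in WT. Sdhb minus Sdhd was -0.18, -0.41 and -0.15 in KO and 0.01, 0.10 and -0.10 in WT, with KO 2 the lowest. Sdhc minus Sdhd was -0.19, -0.26 and -0.27 in KO and 0.03, 0.04 and -0.07 in WT. In these 3 pairs KO and WT did not overlap, and each gave a two-sided exact permutation p of 0.1, the smallest that 3 mice against 3 allow, or 0.2 adjusted over the 6 pairs. With 3 mice a group this exact test cannot place a pair past 0.05, and no other test of the pairs was run. Without KO 3 the 3 differences were -0.18 for Sdha, -0.29 for Sdhb and -0.23 for Sdhc, each minus Sdhd. Among Sdha, Sdhb and Sdhc the groups overlapped in all 3 pairs, with mean differences of 0.09 for Sdha minus Sdhb, 0.08 for Sdha minus Sdhc and 0.00 for Sdhb minus Sdhc (exact permutation p = 0.4, 0.2 and 1).

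**Figure D3:**
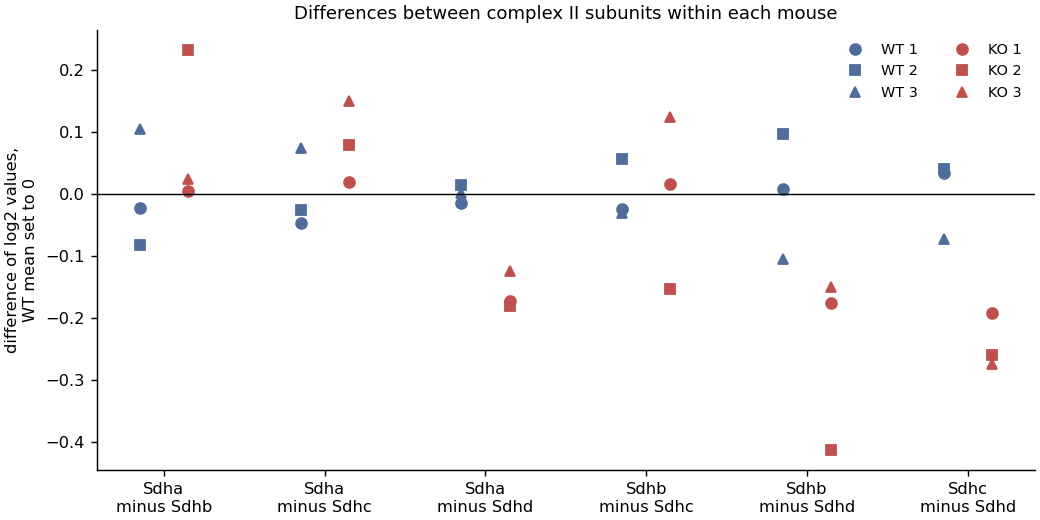
Difference of log2(signal + 16) between each pair of complex II subunits in each mouse, with the WT mean of each pair set to 0. Blue points are WT and red points KO, with 1 point per mouse. KO mice lie below WT mice in the 3 pairs that contain Sdhd, and the groups overlap in the other pairs.

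Averaged over the 4 subunit genes, the log2 value relative to the WT mean was -0.20, -0.22 and -0.32 in KO 1, 2 and 3 and 0.01, -0.01 and 0.00 in WT 1, 2 and 3. The WT mice lay close together, and KO 3 was the lowest. The difference was -0.25, and -0.21 without KO 3. Of the other 12317 named genes tested, the 5 whose profile over the 6 mice lay nearest to this mean were Smcr8, Tk2, Ndufv3, Atpaf1 and Cox5a, with root mean square differences of 0.0094 log2 units for Smcr8 and 0.027 to 0.032 for the others. The subunits themselves lay 0.031, 0.090, 0.065 and 0.120 from their mean for Sdha, Sdhb, Sdhc and Sdhd. The 5 genes were picked as the nearest of 12317 and the subunits were not, so the 2 sets of distances cannot be compared. Smcr8, the nearest, is an autophagy regulator and not a mitochondrial gene. Tk2 is the mitochondrial thymidine kinase, Ndufv3 a subunit of complex I, Atpaf1 an assembly factor of ATP synthase and Cox5a a subunit of cytochrome oxidase. Cox5a read 3722.2, 3768.3 and 3628 in KO and 4457.7, 4247.7 and 4278.9 in WT, with no overlap, and none of the 5 passed in limma (adjusted p from 0.21 to 0.57). The likeness is a description of 6 arrays, which share the same genotype contrast.

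The genes that feed complex II and those that share its substrates were then read from lists, each gene by its brightest tested probe set. The median difference over all 12323 genes tested was -0.01, 51.8% of genes had a difference under 0 and 0.446% were called. In 8.48% all KO mice lay below all WT mice, and in 6.64% all lay above. The 6 complex II genes had a median of -0.17, and the 4 subunits alone -0.29, with 3 of 4 subunits showing all KO below all WT. In none of the 12 lists was a gene called at an adjusted p of 0.05 in limma. Without KO 3, a setting added after the data were seen, no list median moved by more than 0.059, the most being that of ubiquinone synthesis, from 0.00 to 0.06. On the succinate side, all 6 tested genes had a difference under 0 (median -0.17). Sucla2, a subunit of succinyl-CoA synthetase, gave -0.22 (SE 0.088, adjusted p = 0.46) and Suclg2, the GTP-forming partner, -0.27 (SE 0.13, adjusted p = 0.55) with a dimmer probe set at -0.67 (adjusted p = 0.24). KO 2 exceeded WT 2 for Sucla2, so those groups overlapped.

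Among citric acid cycle enzymes outside complex II, 9 of 11 had a difference under 0 (median -0.20) and in 6 no KO mouse reached a WT mouse. Citrate synthase, Cs, read 1532.1, 1515.4 and 1588.6 in KO and 1984.4, 1933.6 and 1825.8 in WT (difference -0.31, SE 0.068, limma adjusted p = 0.094). Idh3b, of NAD-dependent isocitrate dehydrogenase, gave -0.22 (adjusted p = 0.28) without overlap by its brightest probe set, and -0.06 (adjusted p = 0.85) with overlap by another. The groups also overlapped for the other 5 of the 11, which gave -0.20 for Dlst and -0.01 for Ogdh, of the oxoglutarate dehydrogenase complex, 0.03 for Idh2, the NADP-dependent isocitrate dehydrogenase, -0.10 for fumarase, Fh1, and 0.02 for malate dehydrogenase, Mdh2. Those 5 were named after their values were seen. Of the genes of other electron routes to ubiquinone, 7 of 8 had a difference under 0 (median -0.21). Etfb, of the electron transfer flavoprotein, gave -0.36 (SE 0.10, adjusted p = 0.24) and Sqor, sulphide quinone oxidoreductase, -0.35 (SE 0.15, adjusted p = 0.48), both without overlap. Genes of ubiquinone synthesis were split, 6 with a difference under 0 and 6 above (median 0.00). Coq9 at -0.20 and Coq7 at -0.14 had the smallest p, and on the other side Coq8b gave 0.17 and Coq2 and Coq8a 0.13 each. Of these 5, KO and WT did not overlap for Coq9 and Coq2.

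Genes that supply the cofactors of complex II had medians nearer to that of all genes. Iron-sulphur cluster genes had 10 of 16 with a difference under 0 (median -0.08), and their differences ran from -0.35 to 0.34. Glrx5 (-0.25, SE 0.093) and Bola3 (-0.25, SE 0.094) had the smallest p, each with a limma adjusted p of 0.41. Both act late in cluster transfer. A dim Bola3 probe set gave 0.29 (adjusted p = 0.74), in the opposite direction and also without overlap. Flavin and haem genes had 10 of 12 (median -0.09), led by Uros, a haem synthesis enzyme (-0.39, SE 0.14, adjusted p = 0.40), and Slc52a3, a riboflavin transporter (-0.38, SE 0.21, adjusted p = 0.63). When a gene's probe sets were averaged, the flavin and haem median was -0.04. By the brightest probe set, all KO mice lay below all WT mice in 4 of 16 iron-sulphur genes and 3 of 12 flavin and haem genes. Over all genes 8.48% lay so. In both lists 0 genes had all KO mice above all WT mice, against 6.64% over all genes.

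The other respiratory complexes had medians of -0.15 for complex I (33 of 34 genes with a difference under 0), -0.26 for complex III (9 of 9), -0.22 for complex IV (9 of 10) and -0.21 for complex V (16 of 16). In complex III, which takes the electrons from ubiquinone, 8 of 9 genes had all KO mice below all WT mice, led by Uqcrh (-0.29, limma adjusted p = 0.087) and Uqcr10 (-0.30, adjusted p = 0.13). The same held for 18 of 34 genes in complex I, 6 of 10 in complex IV and 14 of 16 in complex V. Over all genes 8.48% lay so. In complex I, 1 gene had all KO mice above all WT mice. Complex I was led by Ndufc1 (-0.27) and Ndufb8 (-0.26), complex IV by Cox6c (-0.25) and Cox5a (-0.22) and complex V by Atp5pb (-0.29) and Atp5g1 (-0.31). Probe sets of a gene differed here too. The other Uqcr10 probe sets gave -0.79 and -0.58 (limma adjusted p = 0.077 and 0.075) and the other one for Uqcrh -0.35, lower than Sdhb and the brighter Sdhc probe set at -0.33. The second Cox6c probe set gave -0.11, with overlap, and that of Atp5pb -0.17. A dim Atp5g1 probe set gave 0.08, in the opposite direction, with overlap. Sdhd, at -0.085, lay above each of the 4 medians, a position that was not tested. The highest gene of each complex also lay above Sdhd, at 0.085 in complex I, -0.082 in complex III, 0.025 in complex IV and -0.081 in complex V.

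**Figure D4:**
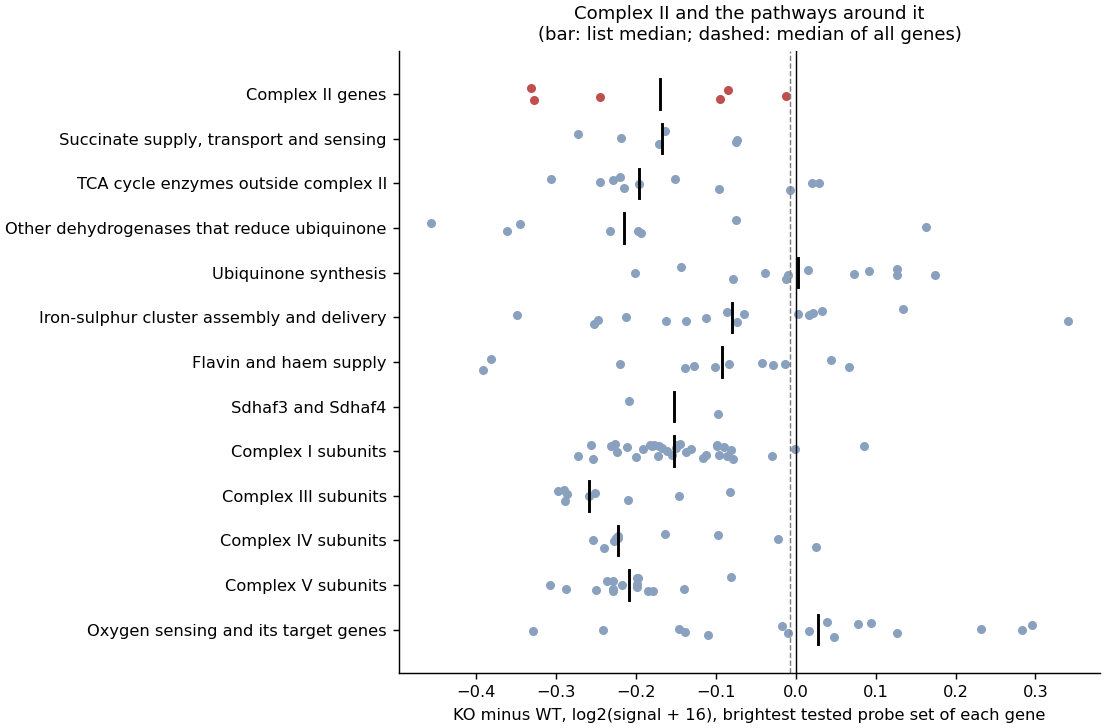
KO minus WT difference on log2(signal + 16) of each gene by its brightest tested probe set, for the 6 complex II genes (red) and the 12 lists around it (blue). Black bars are list medians, the solid line is 0 and the dashed line the median of all genes tested. Among the complex II points, Sdha, Sdhb and Sdhc lie at -0.33 to -0.24 and Sdhd, Sdhaf1 and Sdhaf2 at -0.09 to -0.01.

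Called genes on chromosome 4 lie both near Sdhb and further off. Of the 10 tested genes on each side of Sdhb in the assembly order, 13 of 20 had a difference under 0 (median -0.15). In 4 of the 20 all KO mice lay below all WT mice (8.48% over all genes), and in 2 all lay above (6.64%). Among the 20, 1 was called. That gene, Crocc, which encodes the ciliary rootlet protein rootletin, stands 3 places away and read 81, 82.9 and 103.2 in KO and 140.5, 197.6 and 224.3 in WT (difference -0.94, SE 0.17, limma adjusted p = 0.033). All KO mice were below all WT mice for Crocc, and the WT mice were spread. The other neighbours with all KO below all WT, Necap2 (-0.37), Arhgef19 (-0.52) and Fam131c (-0.27), lie on the same side of Sdhb as Crocc. The 2 with all KO above, Slc66a1 (0.32) and Ubr4 (0.21), lie on the other side. Leaving out KO 1, KO 2, WT 2 or WT 3 ended the Crocc call (adjusted p from 0.11 to 0.14), as did testing all probe sets unfiltered (0.11) or dropping the intensity trend (0.23). Efhd2, a calcium-binding protein, was also called and stands 18 places from Sdhb (difference -1.60, adjusted p = 0.0031), a call that ended without the intensity trend (0.14) and with robust estimation (0.085). At 62 or more places from Sdhb, on the same side as Crocc and Efhd2, Slc2a5, Acot7 and Kcnab2 were called lower in KO. Gnb1 (0.90) and Mxra8 (1.05), also that far off on that side, were called higher. Tmem68, called lower, lies on the other side, at place -612 counted from Sdhb. The direct neighbours of Sdhb, Padi2 and Atp13a2, gave 0.06 and -0.14 with overlapping groups. The part of the neighbourhood in the Sdhb value was not tested. Around the other 5 members 0 of 20 neighbours were called for each in limma, with medians of -0.01 for Sdha, 0.05 for Sdhc, 0.12 for Sdhd, -0.06 for Sdhaf1 and 0.02 for Sdhaf2.

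**Figure D5:**
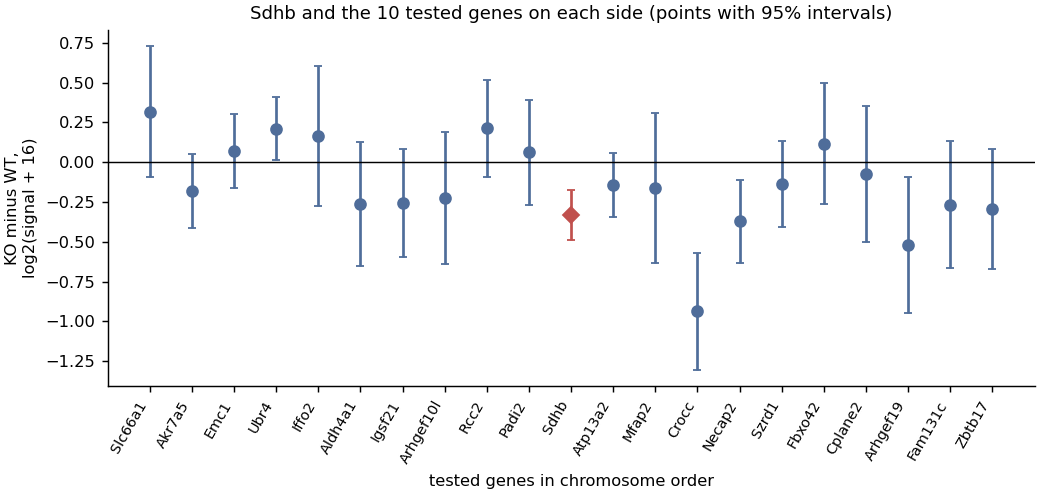
KO minus WT difference on log2(signal + 16), with 95% intervals, for Sdhb (red diamond) and the 10 tested genes on each side of it (blue) in the order of the chromosome, not to scale in distance. Crocc, 3 places from Sdhb, has the lowest value at -0.94, and both direct neighbours of Sdhb have intervals that include 0.

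Marker lists of other cells and regions were read in the same mice, and in them Ttr alone was called. All 7 thalamus markers tested had a difference above 0 (median 0.67) with 0 called in limma, and their summed signal was 2237 to 2814 in KO and 1014 to 2811 in WT. The WT mice were spread, with thalamus sums of 2811 in WT 1, within the KO range, and 1013.9 and 1766.5 in WT 2 and WT 3. Of 7 choroid plexus markers only Ttr and Clic6 passed the filter, and Folr1, Kl, Aqp1, Kcne2 and Otx2 lay under it on average. The sums of the tested markers, 2812 to 3866 in KO and 1480 to 2387 in WT, did not overlap, but most of each sum was Ttr. Clic6 by itself overlapped, at 206.4, 214.9 and 284.7 in KO and 216, 202.9 and 193.8 in WT. Ttr, the transthyretin gene, was called higher by its brightest probe set (0.91, adjusted p = 0.035), and that call ended when KO 1, KO 3, WT 1 or WT 2 was left out (highest adjusted p 0.14), and also unfiltered (0.16), with robust estimation (0.27) and with no trend (0.30). Parvalbumin interneuron markers had 3 of 5 with a difference under 0 (median -0.34), with sums of 1114 to 1666 in KO and 1497 to 2496 in WT. Oligodendrocyte markers had 6 of 7 (median -0.18), with sums of 24158 to 26024 in KO and 24668 to 29693 in WT. Marker lists for neurons in general, cholinergic interneurons, astrocytes, microglia, endothelium and cortical neurons had 0 called and overlapping sums. The part of these cells and regions in the complex II values was not tested.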

How the data were processed

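Striatal RNA of 3 KO and 3 WT mice was measured on 1 array each, with groups and replicate numbers taken from the sample titles. The deposited intensity values are 1 signal per probe set on a linear scale, made with MAS5 per the submitters' processing notes. Its version and settings: not given in the sources used here. Each deposited array was already scaled to the same trimmed mean (150, leaving off 2% of values at each end), so changes are relative to the rest of the array. The number of arrays limits the precision.

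Of 45101 probe sets, 64 controls were left out, and 34958 had 1 gene symbol, 932 several. Symbols were updated through the GRCm38.p6 table (34754 matched), which also gave the gene order. Signals were transformed to log2 after adding 16. Probe sets at or under the 40th percentile of mean log2 signal, a signal of about 26.8, were left out, and 27022 (12323 named genes) went into limma 3.58.1 (R 4.3.3, lmFit and trended eBayes), with p-values adjusted by Benjamini-Hochberg over all of them. Single values were tested with a two-sided exact permutation test. The procedure was tested on simulated data. No set test was run.

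The members, lists, motifs and tests were chosen with earlier results of these data known. Beside the members and Ppargc1a, the genes named are, in each list, the called genes or the 2 with the smallest p, the called neighbours among 10 tested genes on each side, and the 5 nearest profiles. Others were added for their place in the pathway, on the chromosome or among marker lists. The alternatives were quantile normalization, median centring, an offset of 1 or 64, no filter or the 60th percentile, no intensity trend, robust estimation, the replicate number as a block, averaging the probe sets of a gene, and dropping single arrays.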

Additional observations from a re-analysis of the deposited data

How the results depend on the processing

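The count of complex II probe sets past the threshold was 0 in limma, and it was 1, Sdhb, after quantile normalization and 0 under the other 14 alternatives. The number of the 11 with a difference under 0 was 9, and ran from 8 to 10. Sdha, Sdhb, Sdhc, Sdhaf1 and the brighter Sdhd probe set kept a difference under 0 under every alternative that tested them. With median centring the brightest probe sets gave -0.29 for Sdhb (limma adjusted p = 0.22) and -0.20 for Sdha (0.39). Those of Sdhc and Sdhd then gave -0.28 (0.29) and -0.04 (0.92). The brighter Sdhaf2 probe set, 1428880_at, turned to 0.032 with median centring and ran from -0.076 to 0.021 with single arrays left out, above 0 without KO 2, KO 3 or WT 1. The dimmer, Sdhaf2 1452941_at, ran from -0.053 (without KO 2) to 0.14 (without KO 3). The dimmer Sdhd probe set turned to -0.0031 with an offset of 64, and ran from -0.23 (without WT 2) to 0.21 (without WT 3). Sdhb minus Sdhc ran from -0.069 (without KO 3) to 0.070 (without KO 2). The cause of these turns was not tested. No pair of subunits could pass the exact permutation test in any setting. Over all probe sets 127 were called, with 52 under no filter, 25 without the intensity trend, and 65 to 102 with single arrays left out, lowest without KO 1 (65), WT 2 (70) and KO 2 (73). With the replicate block 100 were called over all probe sets and 0 in complex II. In the labels same-numbered mice share only a number. The correlations of their deviations from the group means were -0.01, -0.03 and 0.02, and not every array correlated best with its own number. With 3 arrays a group, whose deviations sum to 0, these values cannot exclude a pairing. Averaging a gene's probe sets moved the median of the citric acid cycle list from -0.20 to -0.14. Among the members the widest errors (SE 0.20 each) were those of Sdhd 1437489_x_at and Sdha 1433293_at, both dim.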

Other observations

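Genes of oxygen sensing were also read, because the prolyl hydroxylases that mark HIF-1alpha for destruction make succinate as a product. Of 16 tested, 7 had a difference under 0 and 9 above (median 0.03), and 0 were called in limma, with 3 at an unadjusted p under 0.05. Egln1, the main such hydroxylase, read 626.4, 720.5 and 674.5 in KO and 575.2, 599.9 and 482 in WT, with no overlap (difference 0.28, SE 0.098, limma adjusted p = 0.35). Its other tested probe set gave -0.02 with overlapping groups (adjusted p = 0.98). Bnip3, a mitophagy receptor induced by hypoxia, read 1196.6, 1236 and 1250.6 in KO and 1124, 1027.3 and 983.3 in WT, again with no overlap (difference 0.23, SE 0.075, limma adjusted p = 0.32). Over all genes 6.64% had all KO mice above all WT mice, and 3 of these 16 did. In 2 of the 16, Pgk1 (-0.14) and Ankrd37 (-0.24), all KO mice lay below all WT mice, against 8.48% over all genes. The lowest difference, -0.33 for Adm, had overlapping groups, and the highest was 0.30 for Slc2a1, the third gene with KO above WT.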
